A study of Mus musculus with 2 samples.

Results

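The CXC chemokines Cxcl1, Cxcl2, Cxcl5, Cxcl9, Cxcl10, Cxcl12, Cxcl13, Cxcl14 and Cxcl16 were examined in mouse calf muscle after depletion of PDGFRα-positive mesenchymal progenitors. They were taken as every probe whose annotated gene symbol is 1 of these 9 names, which gave 11 probes and 9 of the 19321 genes with a named probe. The names were chosen by family and with the depleted over control ratios of these same arrays known, above all that of Cxcl1, so the values below are a description without a test.

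The depleted sample was gastrocnemius of 1 female Pdgfra-CreER:R26-DTA mouse aged 10 weeks, and the control was the same muscle of 1 female wild-type R26-DTA littermate of that age. Both mice carry the R26-DTA allele and received tamoxifen for 5 days from 9 weeks of age, and the muscles were frozen 2 days after the last dose. CreER, a Cre enzyme that needs tamoxifen to act, is driven by the Pdgfra promoter and turns on diphtheria toxin A in the cells that hold it, which then die. The control carries no CreER, so the presence of CreER and the loss of the cells cannot be told apart. The study set out to find genes with altered expression in depleted muscle. With a single array for each genotype no value has a replicate or a test, a difference between genotypes cannot be told apart from one between 2 animals, and this number of arrays sets the precision.

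CXC chemokines are small secreted proteins that steer leukocytes through receptors coupled to G proteins. Cxcl1, Cxcl2 and Cxcl5 attract neutrophils through Cxcr2, and stromal cells, endothelium and macrophages make them on inflammatory signals. Cxcl9 and Cxcl10 are induced by interferons and attract T cells through Cxcr3, while Cxcl12, Cxcl13 and Cxcl14 are made largely by stromal cells and hold or place leukocytes in tissue.

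Spot medians are scanner intensities of the Cy5 label. The background limit, 2 SD over the average blank spot, was 37.4 in control and 38.5 in depleted muscle. The median probe was at 53.3 and 59.8. The authors' processed intensities are called deposited values and have a median of 25 on each array. Log2 ratios are depleted over control after normalization. An offset added there draws the ratios of dim genes toward 0, and the deposited values carry no such offset. The 24 spots of each positive control varied by 6.59% to 10.9% (CV) within an array. Before normalization these control spots were 2.12-fold and 1.74-fold brighter on the depleted array, and their part in the ratios was not tested.

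Pdgfra, the receptor gene that marks these progenitors and whose promoter drives CreER, had spot medians of 250.9 in control and 161.2 in depleted muscle. It was 1.91-fold lower after normalization. Mesenchymal progenitor markers, a list that includes Pdgfra, were lower in 14 of 14 members compared, with a median log2 ratio of -1.02. Of all 18498 genes compared 9698 were lower. At least 2-fold lower were 7 of the 14 markers, and 0.427% of all genes. Skeletal muscle markers were above background on both arrays in 12 of 12 members, as the tissue label says. Their median log2 ratio was -0.04, or -0.40 in deposited values and -0.51 with cyclic loess, and their deposited values summed to 436571 in control and 317643 in depleted muscle. In bulk muscle, fewer cells of a type and less RNA per cell cannot be told apart.

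All 9 chemokines were above background on at least 1 array and 7 on both. In the main setting 1 of 9, Cxcl1, was at least 2-fold higher in depleted muscle, and 0.492% of the 18498 genes compared were. At least 2-fold lower were 0 of 9, and 0.427% of all genes. Of the 9 chemokines 6 had ratios above 0 and 3 below, where 47.4% of all genes lay above 0. The median log2 ratio of the chemokines was 0.23 against 0.00 over all genes. Among the 6, Cxcl2 and Cxcl5 were compared through the depleted array alone, so their ratios could hardly fall below 0. On scaling to the median Cxcl12 and Cxcl16 came to lie above 0. Over all genes 91 were at least 2-fold higher and 79 lower, so that 53.5% of them were higher, and scaling to the median gave 85.0%. Cxcl2 and Cxcl5 were among the 9249 genes at or below the median intensity of the brighter array. Of these genes 0 passed 2-fold in either direction in the main setting. That count was fixed by construction, because the floor for values below background lies less than 2-fold under that median.

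**Figure D1:**
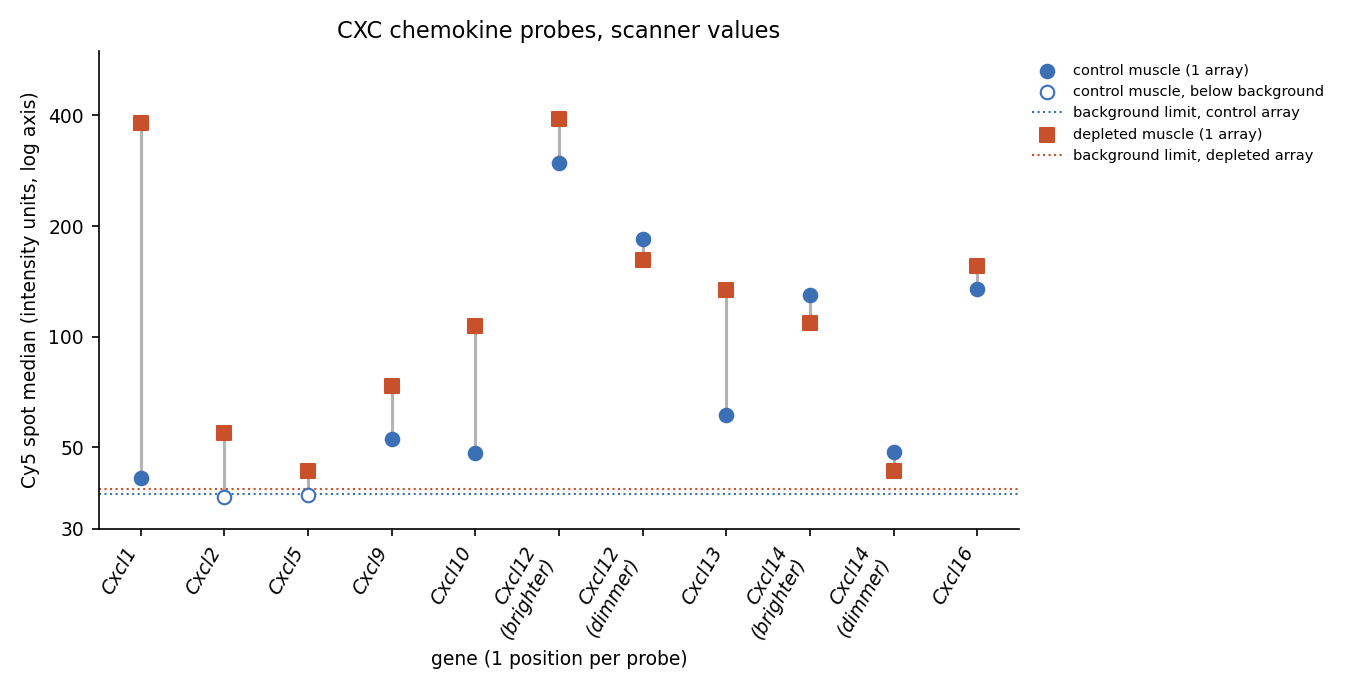
Spot medians of the 11 CXC chemokine probes (vertical, log axis, Cy5 intensity units) on the control array (circles) and the depleted array (squares), with 1 array a group. Dotted lines mark the background limits of 37.4 and 38.5, and open symbols lie below the limit. Cxcl1 goes from 41.2 to 382.1, while Cxcl2 and Cxcl5 are open circles in control muscle.

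Promoter sequence was read for the ligand genes from RefSeq on build GRCm38.p6, as windows of 250 bases before to 50 after the annotated start. The table held 7 of the 9 members and 11 of the 15 ligands, without Cxcl5, Cxcl16, Cxcl11 and Cxcl17. All motifs were searched on both strands. The NF-kappaB consensus, of 10 letters, occurred in Cxcl1, Cxcl2, Cxcl10 and Cxcl3, and in 4.51% of 32851 windows. The core of the interferon-stimulated response element (ISRE), also of 10 letters, occurred in Cxcl10 and in 0.47% of windows. TATAAA occurred in Cxcl9 and Cxcl13 among the members and in 13.62% of windows. Matches of different motifs do not overlap in these windows. A match describes the letters and is no shown binding site. The 250 bases before the start are given for the members that hold the NF-kappaB consensus, with Cxcl3 beside them because it holds the same letters as Cxcl1 and Cxcl2 and had a ratio near 0. Capitals mark the NF-kappaB matches and, in Cxcl10, first the ISRE match and then both NF-kappaB matches. Each is written 5′ to 3′ on the strand of the gene.
Cxcl1, chr5:90890995-90891244, plus strand: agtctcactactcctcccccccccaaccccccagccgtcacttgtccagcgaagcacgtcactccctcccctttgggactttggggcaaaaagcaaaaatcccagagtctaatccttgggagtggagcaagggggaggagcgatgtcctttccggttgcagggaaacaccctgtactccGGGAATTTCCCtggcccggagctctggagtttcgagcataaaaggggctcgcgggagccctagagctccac
Cxcl2, chr5:90903649-90903898, plus strand: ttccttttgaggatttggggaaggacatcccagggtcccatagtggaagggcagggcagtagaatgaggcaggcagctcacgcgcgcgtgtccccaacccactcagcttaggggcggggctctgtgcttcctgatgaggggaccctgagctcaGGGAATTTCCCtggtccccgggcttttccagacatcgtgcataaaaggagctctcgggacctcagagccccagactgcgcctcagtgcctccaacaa
Cxcl3, chr5:90785851-90786100, plus strand: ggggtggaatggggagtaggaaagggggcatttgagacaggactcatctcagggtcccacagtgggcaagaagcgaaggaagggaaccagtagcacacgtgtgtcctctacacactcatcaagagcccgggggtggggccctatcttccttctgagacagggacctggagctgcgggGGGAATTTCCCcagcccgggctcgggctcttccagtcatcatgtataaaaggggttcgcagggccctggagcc
Cxcl10, chr5:92348890-92349139, minus strand: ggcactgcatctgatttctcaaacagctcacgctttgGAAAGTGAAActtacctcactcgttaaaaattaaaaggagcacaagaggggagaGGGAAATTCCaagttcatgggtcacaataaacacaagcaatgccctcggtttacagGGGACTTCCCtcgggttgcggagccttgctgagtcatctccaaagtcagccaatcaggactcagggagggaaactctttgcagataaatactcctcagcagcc

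Cxcl1, a neutrophil attractant, was close to background in control muscle and clearly measured in depleted muscle. Its spot median (probe M200004035) was 41.2 in control and 382.1 in depleted muscle. The control spot lay 8.55 SD of the blanks above their mean and the depleted spot 443 SD above it. The deposited values were 6.3 and 323.9, a 51.4-fold difference, and the log2 ratio was 2.59, or 6.01-fold. It was the 6th highest ratio of the 18498 genes. The size of the fold thus depends on how the dim control spot is treated. Cxcl1 was at least 2-fold higher in each of 11 settings, with log2 ratios from 2.32 to 5.68. These settings are not independent. The mean of a gene's probes and the other filters on dim genes cannot change a gene with 1 probe above background on both arrays. Subtraction of the blanks, at 5.66, nearly repeats the deposited values.

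Cxcl2, which acts on the same receptor, was above background on the depleted array alone. Its spot median (probe M200002070) was 36.5 in control, not above background, and 54.8 in depleted muscle, 22.9 SD of the blanks above their mean. The deposited table has no value for it in control and 16.8 in depleted muscle, where the lowest value it gives on the control array is 1.2. Set against the lowest normalized signal above background, Cxcl2 was at least 1.27-fold higher in the main setting. On scaling to the median its log2 ratio was 0.28, against 0.34 in the main setting. Cxcl5 (probe M200001871) had the same pattern at a lower signal. Its spot medians were 37.1 in control, not above background, and 43.2 in depleted muscle. Its deposited value was 5.8 in depleted muscle and empty in control. In the main setting Cxcl5 was at least 1.07-fold higher, a log2 ratio of 0.10, and on scaling to the median it was at 0.02. Of the 3 neutrophil-attracting members, Cxcl1 alone was thus above background on both arrays. Cxcl2 and Cxcl5 entered the comparison through the depleted array alone, so their direction was largely set by that filter. Cxcl3, a further ligand of the same receptor, had a log2 ratio of -0.03.

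**Figure D2:**
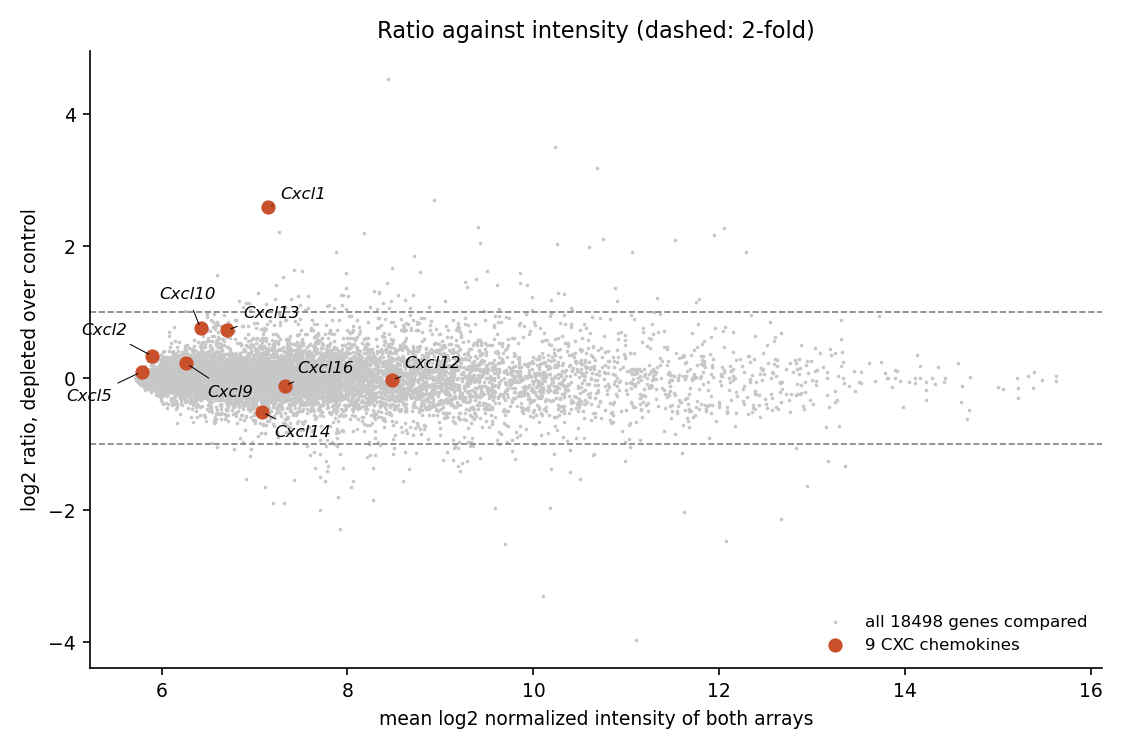
Log2 ratio, depleted over control (vertical), against the mean log2 normalized intensity of both arrays (horizontal) for the 18498 genes compared (grey points) and the 9 CXC chemokines (red points). Dashed lines mark 2-fold. Cxcl1 at 2.59 is the only chemokine of the 9 beyond them, and Cxcl2, Cxcl5 and Cxcl9 lie at the dim end, where the cloud of all genes is narrow.

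Cxcl10, an interferon-induced attractant of T cells, had spot medians of 48.3 in control and 106.7 in depleted muscle (probe M200000311). Its deposited values were 15.3 and 65.5, 4.28-fold higher in depleted muscle. The log2 ratio was 0.76, or 1.70-fold, and 212 genes had a higher one. Cxcl9, the other member of this kind, had a smaller ratio, with spot medians of 52.5 and 73.4 (probe M200000272). Its deposited values were 20.7 and 34.2, 1.65-fold higher, and its log2 ratio was 0.23. Both were above background on both arrays and higher in depleted muscle in each of 11 settings. As for Cxcl1, some of these settings could not change them.

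Cxcl13, which guides B cells through Cxcr5, had spot medians of 61.3 in control and 133.6 in depleted muscle (probe M200002874). Its deposited values were 31.9 and 90.7, 2.84-fold higher, and the log2 ratio was 0.73, or 1.66-fold. Cxcl10 and Cxcl13 thus lay short of 2-fold in the main setting and passed it in 4 of 11 settings, the deposited values among them. At 1.5-fold 3 of 9 members were higher, and 1.96% of all genes. In the deposited values 3 of the 7 members with a value on both arrays, Cxcl1, Cxcl10 and Cxcl13, were at least 2-fold higher, and 2.86% of all genes. By its brightest probe none of the 7 was at least 2-fold lower there, and 1.96% of all genes were.

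Cxcl14, a chemokine of fibroblasts and epithelia, was lower on the depleted array with both of its probes. The brighter probe (M300002790) had spot medians of 129.9 in control and 108.9 in depleted muscle and 119.1 and 67.5 in the deposited table, 1.76-fold lower. The dimmer probe (M400012815) had spot medians of 48.6 and 43.0 and deposited values of 15.8 and 5.7, 2.77-fold lower. The log2 ratios were -0.51 and -0.22. With the local background column subtracted the brighter probe was at 0.00, so its lower value is not seen there.

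Cxcl12, which retains stem cells and leukocytes through Cxcr4, gave different values with its probes. The brighter probe (M400007361) had spot medians of 297.1 in control and 390.5 in depleted muscle, and deposited values of 331.9 and 331.8. The dimmer probe (M400011403) had spot medians of 184.7 and 161.6, and deposited values of 189.0 and 117.0, 1.62-fold lower in depleted muscle. The log2 ratios were -0.03 and -0.51. The annotation ties the probes to different transcripts of the gene. The mean of both probes was -0.27, and the brighter probe was at 0.25 with scaling to the median and at -0.70 with the local background subtracted, so no direction is given for Cxcl12. Cxcl16, a membrane-bound chemokine of macrophages and dendritic cells that can be shed, had spot medians of 134.4 and 156.1 and deposited values of 124.9 and 111.9 (probe M200014509). Its log2 ratio was -0.11, with 0.07 on scaling to the median and 0.60 with the local background subtracted.

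Among the progenitor markers Lum, a matrix proteoglycan, was 3.57-fold lower and the collagen Col1a2 2.68-fold lower, while the lowest ratio of a chemokine probe in the main setting was -0.51. In deposited values Col1a2 was at -1.43 and the brighter probe of Cxcl14 at -0.82. The dimmer probe of Cxcl14 was at -1.47 there, but its depleted spot of 43.0 lay near the background limit of 38.5. The chemokines made largely by stromal cells thus had no common direction: Cxcl13 was higher, Cxcl14 lower in 10 of 11 settings, and Cxcl12 without a settled sign.

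**Figure D3:**
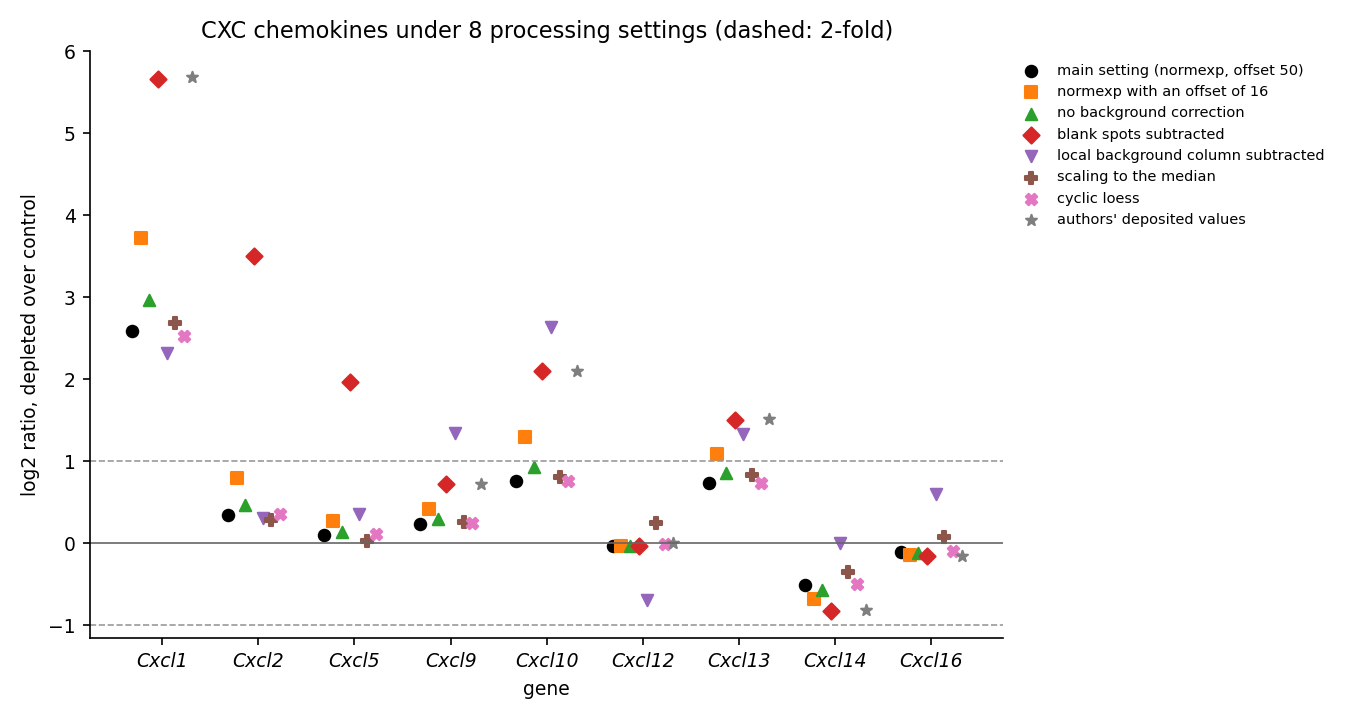
Log2 ratio, depleted over control (vertical), of the 9 chemokines under 8 processing settings, 1 symbol per setting. Dashed lines mark 2-fold. Cxcl1 lies between 2.32 and 5.68 in all of them, Cxcl10 and Cxcl13 cross 2-fold in some, and Cxcl12 and Cxcl16 have values on both sides of 0.

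The remaining CXC ligands above background differed by less than 2-fold. Cxcl3, a neighbour of Cxcl1 that also acts on Cxcr2, had 31.3 and 29.9 in the deposited table and a log2 ratio of -0.03. Cxcl11, which shares Cxcr3 with Cxcl9 and Cxcl10, had 126.1 and 95.4, with a log2 ratio of -0.27. The platelet chemokines Pf4 and Ppbp were at 0.32 and 0.09, and Cxcl17 was at 0.04. Cxcl15 was not above background on either array. Of these 5 measured ligands 0 passed 2-fold in the main setting or in the deposited values. The shares of all genes at least 2-fold higher and lower were 0.492% and 0.427% in the main setting and 2.86% and 1.96% in the deposited values.

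Receptors of the neutrophil and T cell chemokines were at the edge of detection. Cxcr2 had spot medians of 38.2 and 39.9 and deposited values of 2.5 and 2.8, and Cxcr3 had spot medians of 38.9 and 41.4 and deposited values of 3.4 and 4.2. Cxcr1 and Cxcr6, the latter the receptor of Cxcl16, were not above background on either array. Cxcr5 was at 0.03, and Cxcr4 at 0.04 with its brighter and 0.13 with its dimmer probe. The atypical receptors take up chemokines without G protein signalling. Ackr1, found on venules and red cells, had deposited values of 27.4 and 41.4 and a log2 ratio of 0.22. Ackr3, which scavenges Cxcl12, had spot medians of 356.4 in control and 246.8 in depleted muscle and deposited values of 407.4 and 196.9. Its log2 ratio was -0.90, or 1.87-fold lower, and 107 genes had a lower one. It was below 0 in each of 11 settings, from -4.09 with the local background subtracted to -0.63 with scaling to the median. Of the 6 receptors measured, Ackr3 had the only ratio below 0 in the main setting, and their median was 0.02, or -0.02 with scaling to the median.

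**Figure D4:**
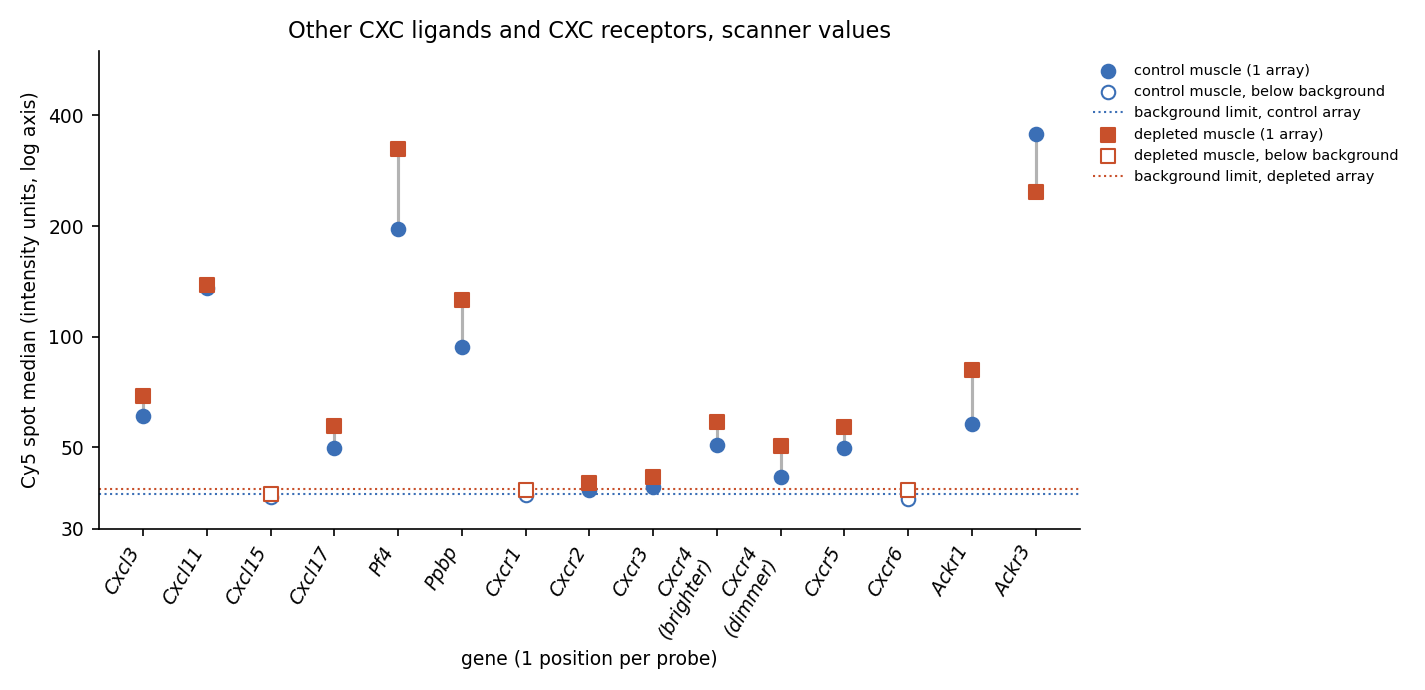
Spot medians of the other CXC ligands and the CXC receptors (vertical, log axis, Cy5 intensity units) on the control array (circles) and the depleted array (squares), with 1 array a group and open symbols below the background limit. Ackr3 goes from 356.4 in control to 246.8 in depleted muscle, while Cxcr1, Cxcr2, Cxcr3 and Cxcr6 lie at the limit.

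Cytokines known to induce these chemokines had deposited values under the array median of 25 in both muscles. Tnf had 1.6 for control and 2.1 for depleted muscle, Il1b 22.0 and 18.9, Il6 3.2 and 13.6, and Ifng 6.7 and 6.7. Among 20 inducing cytokines and receptors 0 passed 2-fold in the main setting and the median log2 ratio was 0.01. In the deposited values 2 of the 20 were at least 2-fold higher, against 2.86% of all genes, and 1 at least 2-fold lower, against 1.96%. Il6, with 4.25-fold, was among the higher ones. Its control spot of 38.7 lay near the background limit of 37.4, and its log2 ratio in the main setting was 0.24. Ifngr2, a subunit of the interferon gamma receptor, was at -0.52 and the adaptor Myd88 at 0.41. NF-kappaB subunits and feedback genes were above 0 in 13 of 21 members, against 47.4% of all genes, with a median of 0.06. None of the 21 passed 2-fold in the main setting. In the deposited values 2 were at least 2-fold higher, and 2.86% of all genes. Within that list Nfkbib, an inhibitor of NF-kappaB, was at 0.62, while the growth factor Csf1 and the feedback inhibitor Tnfaip3 were both at -0.55. Genes of the interferon gamma axis were above 0 in 12 of 15 members, against the same 47.4%, with a median of 0.25, or 0.79 in deposited values. Of the 15, 0 passed 2-fold in the main setting and 4 were at least 2-fold higher in the deposited values, where 2.86% of all genes were. The transcription factors Irf1 and Stat2 were at 0.58 and 0.56, and the GTPase Gbp2 was at 0.56 with deposited values of 52.2 and 104.4.

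Of the genes that handle the ligands or carry the receptor signal, 0 passed 2-fold in the main setting and 1, the leukocyte GTPase Rac2, in the deposited values. Over all genes 0.492% were at least 2-fold higher and 0.427% lower in the main setting, and 2.86% and 1.96% in the deposited values. Among 8 handling genes, such as the proteases that shed or trim chemokines, the median was 0.01, and Sdc4, a surface proteoglycan, was at 0.44. Adam17 was at 0.09 and Adam10, which sheds Cxcl16, at 0.07. Among 13 receptor signalling genes the median was 0.08, with Rac2 at 0.55 and deposited values of 22.4 and 59.3, Arrb1 at 0.15 and Gnai2 at -0.20.

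Markers of cells that make or answer these chemokines were summed over deposited values. Macrophage and monocyte markers were above 0 in 16 of 16 members, against 47.4% of all genes, and above background on both arrays in all 16, with a median log2 ratio of 0.27. Their sum was 5652 in control and 9842 in depleted muscle, and 3919.8 and 5505 without Lyz2, whose values were 1732.3 and 4337.4. Lyz2 was 2.33-fold higher, and the complement genes C1qc and C1qb were at 0.91 and 0.84. Their part in the chemokine values was not tested. Neutrophil markers were above 0 in 10 of 15 members, against the same 47.4%, with sums of 507 and 467 over the 14 with deposited values on both arrays, a median of 0.01 and 0 past 2-fold. S100a8 was at 0.34, S100a9 at -0.23 and Fpr2 at -0.33, and without S100a9, deposited at 224.6 and 183.3, the sums were 282 and 284. The list of T and B lymphocyte markers also names Nkg7, Klrb1c and Ncr1, genes of natural killer cells. It had sums of 169 and 160.4 over 12 genes and a median of 0.00. Within it Cd2 was at 0.29, Cd22 at -0.19 and Cd4 at -0.17. Endothelial markers were above 0 in 9 of 12 members and below 0 in 3. Their median was 0.06, or -0.15 with the local background subtracted, and the largest ratios were Cldn5 at 0.83, Pecam1 at 0.40 and Egfl7 at 0.30. Platelet markers had a median of 0.07 with Clec1b at 0.11. The genes whose ratio lay closest to that of Cxcl1 over the 2 arrays were the chemokine Ccl7 at 2.68, the ubiquitin ligase Trim63 at 2.71 and 2410006H16Rik at 2.30.

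In the promoter windows printed with the motif searches, the Cxcl1 match GGGAATTTCC ran from base -71 to -62 before the start, in Cxcl2 from -97 to -88 and in Cxcl3 from -73 to -64. In these 3 genes the match on the other strand, GGAATTTCCC, overlaps it and is shifted by 1 base. In Cxcl10 the matches were GGGAAATTCC from -159 to -150 and GGGACTTCCC from -103 to -94, and the ISRE match, on the opposite strand, from -213 to -204. The main-setting log2 ratios of these genes were 2.59 for Cxcl1, 0.76 for Cxcl10, at least 0.34 for Cxcl2 and -0.03 for Cxcl3. Genes with an NF-kappaB match thus had both the highest ratio of the family and a ratio near 0.

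**Figure D5:**
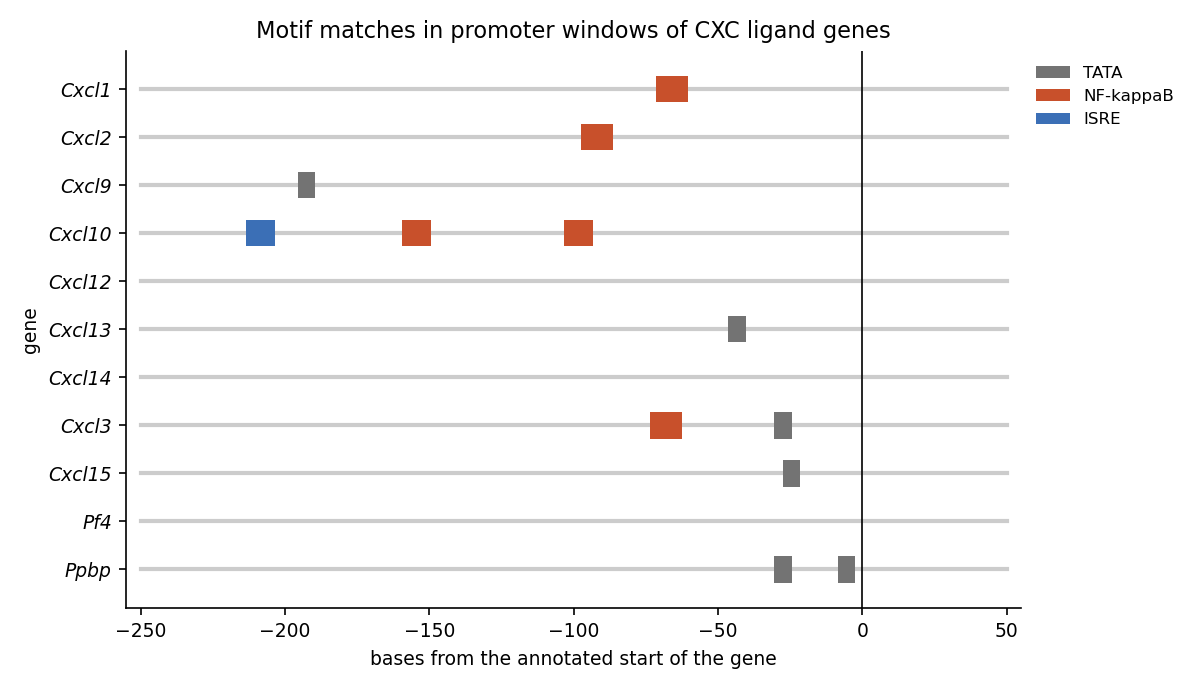
Matches of 3 motifs (coloured bars) in the promoter windows of 11 CXC ligand genes (rows), by distance in bases from the annotated start (horizontal, start marked by the vertical line). NF-kappaB matches start at -71 in Cxcl1, -97 in Cxcl2, -73 in Cxcl3 and at -159 and -103 in Cxcl10, and the ISRE match at -213 in Cxcl10.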

How the data were processed

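Amplified RNA of each muscle was labelled with Cy5 and put on 1 array of 1 colour, per the labels' protocols. Scanner files hold the deposited intensity of each spot, a median fitted over 3 gains and not background-subtracted, per the file headers; the scanner is not given in the sources used here. The authors also deposited processed intensities, which follow the scanner intensity less 36.2 and 37.0, about the average blank, times 1.27 on the control and 0.939 on the depleted array, with 1237 and 1231 probes left empty.

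All 2736 blank spots set the background limit. Intensities were corrected with normexp (offset 50) in limma 3.58.1 (R 4.3.3), set on log2 and quantile-normalized. The brightest probe stood for a gene, and a value below background was raised to the lowest value above it. The comparison, at 2-fold, took in 18498 genes with a signal over background on either array. The steps were run on simulated data made from the control array, in which only bright probes were changed. The simulated arrays did not differ in general brightness. That run thus does not cover dim spots such as that of Cxcl1 in control, and its result is not given here. The alternatives were 16 as offset, no background correction, subtraction of the blanks or of the local background, median scaling, cyclic loess, the deposited values, the mean of a gene's probes, other filters on dim genes and 1.5-fold and 3-fold thresholds; they were run for Ackr3 after its value had been seen. Of 23473 probes, 20690 have 1 gene symbol, 0 several and 2783 none; all 11 chemokine probes matched RefSeq by Entrez gene, with 0 symbols changed. Beyond the chemokines, every other CXC ligand and receptor was named, up to 3 genes of each further list by size of ratio, the 3 genes closest to Cxcl1, and Pdgfra and 4 inducers. The chemokines, lists, motifs and tests were chosen with earlier results of these data known. Lists share members: 2 of 16 neutrophil markers, 2 of 9 platelet markers and 1 of 17 progenitor markers stand in another list. Python 3.11.15 with numpy 2.4.6, pandas 2.3.3 and matplotlib 3.10.9 was used for tables and plots.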

Additional observations from a re-analysis of the deposited data

How the results depend on the processing

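No paired analysis was possible because control and depleted muscle had 1 array each. Cxcl1 kept its direction and its side of 2-fold in all 10 alternatives. The probe mean and the other filters could not move Cxcl1, Cxcl9, Cxcl10, Cxcl13 or Ackr3, which have 1 probe each, above background on both arrays. An offset of 16 put Cxcl10 at 1.29 and Cxcl13 at 1.09. With the blank spots subtracted Cxcl2 was at 3.50, Cxcl5 at 1.96, Cxcl10 at 2.10 and Cxcl13 at 1.5. The median over the members was then 1.5. There the control values of Cxcl2 and Cxcl5 rest on a floor. Scaling to the median put Cxcl2 at 0.28 and Cxcl5 at 0.02. With the local background column subtracted Cxcl9 was at 1.34, Cxcl10 at 2.64 and Cxcl13 at 1.33, and the median of the other CXC ligands was 0.67. This column tracks the spots themselves, with a Spearman correlation of 0.941 in control and 0.972 in depleted muscle over 23473 probes, and around the Cxcl1 spot of the depleted array it was 348.5. The deposited values put Cxcl10 at 2.10 and Cxcl13 at 1.51, and gave no ratio for Cxcl2 and Cxcl5. The offset by its construction shrinks the ratios of dim genes; other causes were not tested.

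The members at least 2-fold higher were 1 in the main setting, 3 with an offset of 16, 5 with the blank spots subtracted, 4 with the local background subtracted, 3 in the deposited values and 3 at 1.5-fold. Genes higher and lower were 91 and 79, 163 and 117 with an offset of 16, 503 and 360 with the blanks subtracted, 1940 and 2021 with the local background subtracted, 216 and 38 after median scaling, 514 and 352 in the deposited values, 363 and 282 at 1.5-fold and 27 and 17 at 3-fold. Signal over background limits Cxcl2 and Cxcl5, whose control spots were below the limit.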

Other observations

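Some genes of the family lie side by side on chromosome 5, and among those with a ratio there Cxcl1 alone stood far from 0. In the RefSeq order of coding genes, Cxcl5, Ppbp, Pf4, Cxcl3, Cxcl15, Cxcl1 and Cxcl2 follow each other without another coding gene between them. In that order the main-setting log2 ratios were at least 0.10 for Cxcl5, 0.09 for Ppbp, 0.32 for Pf4 and -0.03 for Cxcl3. Cxcl15 had no ratio, Cxcl1 was at 2.59 and Cxcl2 at least at 0.34. The run thus holds the highest ratio of the family between a gene not above background on either array and a gene above background on the depleted array alone. Cxcl9 and Cxcl10 lie apart from that run with only Art3 between them, and their deposited values were 1.65-fold and 4.28-fold higher in depleted muscle.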
